A study of Sparassis latifolia with 12 samples.

Results

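CAT (EVM0011998) and GST2 (EVM0000573) are the 2 genes for antioxidant enzymes that the study named among the mRNAs of Sparassis latifolia, an edible cauliflower mushroom, and they were followed here as 2 of 13103 mRNAs over all 12 libraries. Both were taken by their identifiers. Gene names and products are those given in the study. Of the identifiers in the deposited files, 0 matched the reference table of locus tags. Both genes were named by the study from mRNAs that had changed in these same libraries, so that a difference from day 0 is a description of how far and how evenly they changed rather than independent evidence that they did.

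Fruiting bodies of strain Minxiu No.1 were packed in oriented polypropylene (OPP) film and kept at 4 ℃, and RNA-seq of rRNA-depleted RNA was done on 3 replicates per time point. Group A was fresh (day 0), and groups B, C and D had been stored for 8, 16 and 24 days. Packed mushrooms were divided at random among the groups. All groups share the strain and the film packing. The stored groups share the temperature and differ in storage time. Day 0 had no days of storage at 4 ℃. In comparisons with day 0, time after harvest, cold and time in the film therefore cannot be told apart. The fresh mushrooms of day 0 are the control of all 3 comparisons with stored ones. The libraries also differ in mapping: the study lists a smaller share of uniquely mapped reads on days 8 and 24 than on days 0 and 16. Whether this affected the values below was not tested. The sources used here do not state whether the 3 replicates of a day came from separate fruiting bodies, so p-values measure only the spread between these libraries. The labelled tissue, fruiting body, was not checked against marker genes, as no product names were matched. In such bulk samples, fewer cells of a type and less RNA per cell cannot be told apart.

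Catalase is a heme enzyme that splits hydrogen peroxide into water and oxygen, and in fungi it is found in peroxisomes and in other compartments. Glutathione S-transferases join the tripeptide glutathione to reactive, often toxic compounds, among them products of lipid oxidation, which makes them easier to remove from the cell. Both enzymes belong to the defence against reactive oxygen species, which build up in stored mushrooms and other produce after harvest. They act on different substrates, and GST consumes reduced glutathione whereas catalase needs no such reductant.

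CAT mRNA was higher and GST2 mRNA was lower in the stored fruiting bodies than in the fresh ones, in every one of the 9 stored libraries. Of the 10962 mRNAs that passed a filter on low values, 9.52% were likewise higher in all 9 stored than in all 3 fresh libraries and 8.99% lower in all of them. Fresh fruiting bodies held little CAT mRNA and much GST2 mRNA. By day 8 CAT had risen 6.63-fold and GST2 had fallen 15.8-fold, both from means on the log2 scale. Neither gene passed the test between any pair of stored days. Levels below are FPKM (fragments per kilobase, relative to the mapped fragments of the library) divided by a library factor of 0.984 to 1.02, so that they lie close to the deposited values.

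CAT stood at 8.54, 6.45 and 11.7 FPKM in replicates 1, 2 and 3 of day 0. On day 8 it stood at 39.1, 31.5 and 200.6 FPKM. Day 16 gave 45.0, 46.6 and 65.7 FPKM. All 3 fresh libraries were thus low and close together, and replicate 3 of day 8 was far above the other two of its day. On day 24 CAT stood at 104.8, 24.4 and 47.0 FPKM, with replicate 1 high and replicate 2 the lowest of all stored libraries. The lowest stored library was still 2.09-fold above the highest fresh one, so the fresh and stored groups did not overlap.

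GST2, the glutathione S-transferase, stood at 339.8, 797.8 and 151.5 FPKM in replicates 1, 2 and 3 of day 0. On day 8 the values were 17.7, 23.8 and 21.5 FPKM. On day 16 they were 17.0, 38.4 and 21.1 FPKM. The fresh libraries were all high but far apart, while those of day 8 lay close together and those of day 16 had 1 high library, replicate 2. On day 24 GST2 stood at 41.5, 38.1 and 51.1 FPKM. These 3 values lay above all 3 of day 8 and overlapped with those of day 16 only through its replicate 2. The lowest fresh library was 2.96-fold above the highest stored one.

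**Figure D1:**
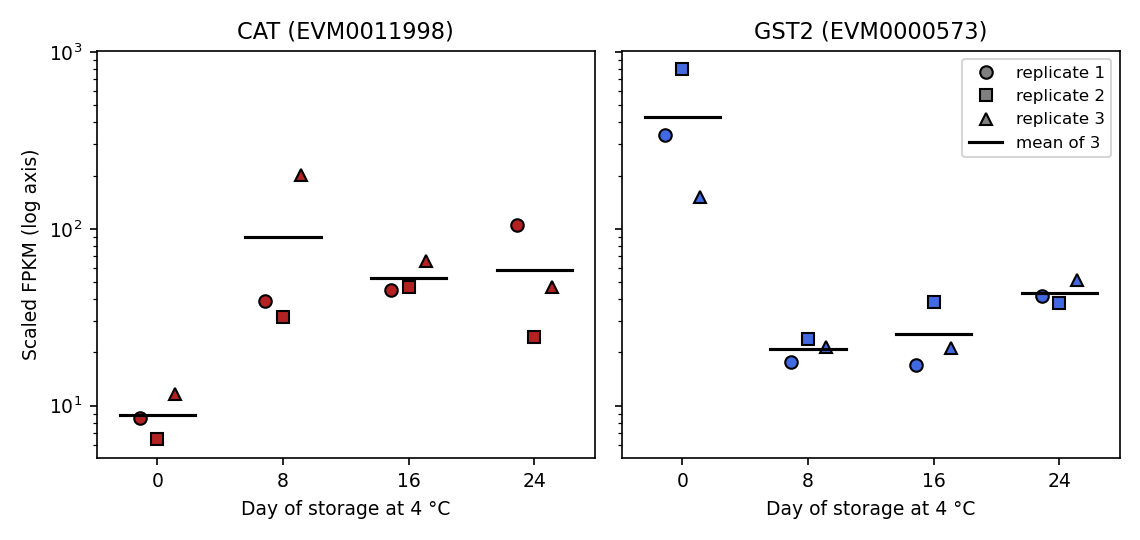
Scaled FPKM of CAT (left) and GST2 (right) in each library by day of storage at 4 ℃, on a log axis, with circles, squares and triangles for replicates 1, 2 and 3 and a bar for the mean of 3. The 9 stored libraries lie above the 3 fresh ones for CAT (6.45 to 11.7 FPKM) and below the 3 fresh ones for GST2 (151.5 to 797.8 FPKM).

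The reads behind these values are many enough that counting error is small beside the differences between replicates. FPKM values of a gene were whole multiples of 1 step per library for 13021 of 13025 mRNAs (within 0.000320 of a whole number), which gave relative depths and reads per gene. On this basis the library with the fewest reads in mRNAs held 36636260 and the one with the most 62300331. CAT rested on 765 reads in the library with fewest and 24414 in the library with most, and GST2 on 506 to 21741. With each read taken as independent, the relative counting error was at most 3.62% for CAT and 4.45% for GST2. It would be larger if reads of the same fragment were counted separately, which was not checked. This error does not cover differences between fruiting bodies or in library preparation.

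The first question is how each gene differed between fresh and stored fruiting bodies. The groups were compared with limma on log2(scaled FPKM + 1), a scale that understates the change of low genes, with Benjamini-Hochberg adjustment over the 10962 mRNAs of at least 1 FPKM in at least 3 libraries. Both members passed this filter, and a call required a change of 1 log2 unit or more with an adjusted p below 0.05. Of all mRNAs tested, 30.5% were called on day 8, 31.3% on day 16 and 13.5% on day 24 against day 0, in either direction.

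CAT was called up-regulated on all 3 stored days by limma. Its mean went from 8.88 ± 2.63 FPKM (SD, n = 3) on day 0 to 90.4 ± 95.5 on day 8, a log2 fold change of 2.73 ± 0.64 (SE) with an adjusted p of 0.00493 and a 95% interval of 1.32 to 4.14. On day 16 the mean was 52.4 ± 11.5 FPKM and the log2 fold change 2.45 ± 0.64, with an adjusted p of 0.00864. On day 24 the mean was 58.7 ± 41.5 FPKM and the log2 fold change 2.39 ± 0.64, with an adjusted p of 0.0225. The size of the day 8 rise rested in part on its replicate 3, without which the log2 fold change was 1.91 (limma, adjusted p = 0.00879). The call of day 24 was lost without replicate 1 of day 24, where the log2 fold change was 1.86 with an adjusted p of 0.0916, and without replicate 3 of day 24 (0.0562) or replicate 1 of day 0 (0.0600).

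GST2 was called down-regulated on all 3 stored days by limma. Its mean went from 430 ± 332 FPKM (SD, n = 3) on day 0 to 21.0 ± 3.07 on day 8, a log2 fold change of -3.98 ± 0.48 (SE) with an adjusted p of 7.21e-05 and a 95% interval of -5.04 to -2.93. On day 16 the mean was 25.5 ± 11.3 FPKM and the log2 fold change -3.79 ± 0.48, with an adjusted p of 0.000102. On day 24 the mean was 43.6 ± 6.79 FPKM and the log2 fold change -2.97 ± 0.48, with an adjusted p of 0.00209. On the scale of log2 means the level was 15.8-fold, 13.8-fold and 7.83-fold lower than on day 0. Each of the 12 libraries could be left out without loss of these 3 calls, but the size of the fall rested on the widely spread fresh libraries. Without replicate 2 of day 0 the log2 fold change was -3.38 on day 8, -3.19 on day 16 and -2.36 on day 24, and without replicate 3 of day 0 the values were -4.58, -4.38 and -3.56.

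Set beside all mRNAs tested, both members stood near the ends of the distribution of changes. On day 8 only 78 of 10962 mRNAs had a larger log2 fold change than CAT, and 47 had a more negative one than GST2. On day 16 the numbers were 182 and 54, and on day 24 they were 138 and 73. Since the study chose both genes for having changed, these positions describe them and are no test.

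The second question is whether either gene went on changing in storage. Between days 16 and 8, 0 mRNAs (0% of those tested) were called by limma, against 537 at an unadjusted p under 0.05, and limma-voom on the recovered reads called 0 as well. Without replicate 3 of day 8, the library with most CAT, limma called 29, and it called 1 under quantile normalization and 1 without replicate 1 of day 0. Between days 24 and 8, 23.6% were called, and between days 24 and 16, 18.6%. CAT was not called in any of these 3 comparisons by limma. Its log2 difference was -0.28 for day 16 against day 8 (95% interval -1.69 to 1.12, adjusted p = 1), -0.34 for day 24 against day 8 (-1.75 to 1.06, 0.697) and -0.06 for day 24 against day 16 (-1.47 to 1.35, 0.954). These intervals reach past 1 log2 unit on either side, so rises or falls of that size are not excluded.

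GST2 was not called between stored days either, but its mean on day 24 was the highest of the stored days. Against day 8 the log2 difference was 1.02 ± 0.48 (SE), with an interval of -0.04 to 2.07 and an adjusted p of 0.118 by limma, although the libraries of the days did not overlap (38.1 to 51.1 against 17.7 to 23.8 FPKM), as they did not for 26.8% of mRNAs tested that lay higher on day 24. The outcome depended on the fresh libraries, which spread widely and share in the error estimate. A fit of days 8 and 24 alone, which leaves out day 16 as well as day 0, gave the same difference an adjusted p of 0.00560. The fits without replicate 2 or replicate 3 of day 0 gave 0.0291 and 0.0390. Against day 16 the log2 difference was 0.82 ± 0.48, with an adjusted p of 0.219 (0.0431 in a fit of days 16 and 24 alone, below the size a call required), and from day 8 to day 16 it was 0.19 ± 0.48, with an adjusted p of 1.

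**Figure D2:**
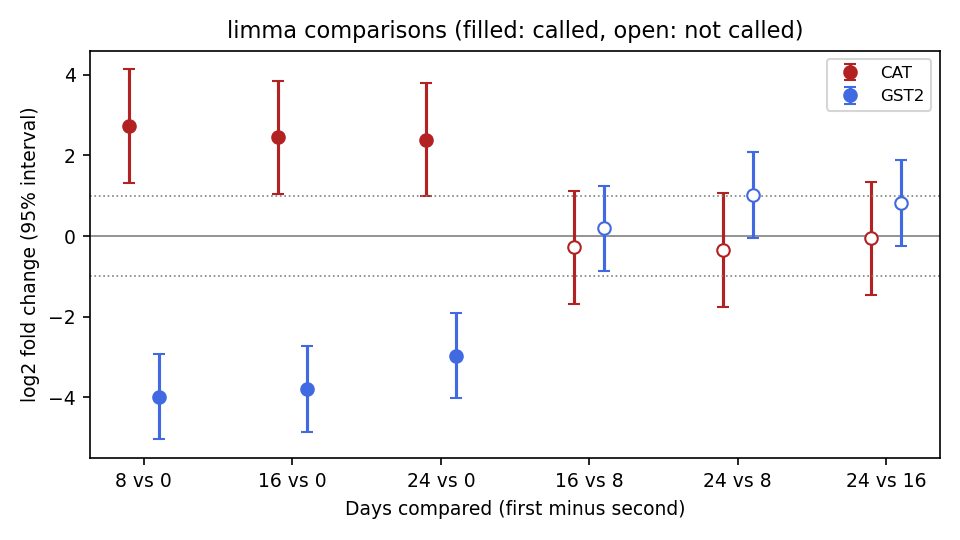
The log2 fold change of CAT and GST2 in the 6 comparisons of days, with 95% intervals, from limma on log2(scaled FPKM + 1), where filled points were called, open points were not, and dotted lines mark a change of 1 log2 unit. CAT lies above 0 (2.39 to 2.73) and GST2 below 0 (-3.98 to -2.97) against day 0, and all 6 intervals between stored days include 0.

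In rank among all 13103 mRNAs the genes changed places. On day 0 CAT exceeded 39.4% of the mRNAs on average (34.9% to 43.8% in the 3 libraries) and GST2 exceeded 96.5% (93.5% to 99.1%). On day 8 the averages were 77.3% for CAT and 55.5% for GST2. GST2 lay at ranks 119 to 852 in the fresh libraries and at ranks 3064 to 6521 in the stored ones.

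On day 16 CAT exceeded 77.2% of all mRNAs on average and GST2 58.6%. On day 24 the figures were 74.3% and 72.7%, the closest of the 4 days. The rank of CAT varied most on day 8 (65.8% to 95.0%) and day 24 (59.5% to 88.3%), so that in 1 library of day 8 it was at rank 659 and in another at rank 4480. Among the 10962 mRNAs past the filter alone, the fresh level of CAT lay lower in rank (27.5%), as the removed mRNAs are low ones.

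**Figure D3:**
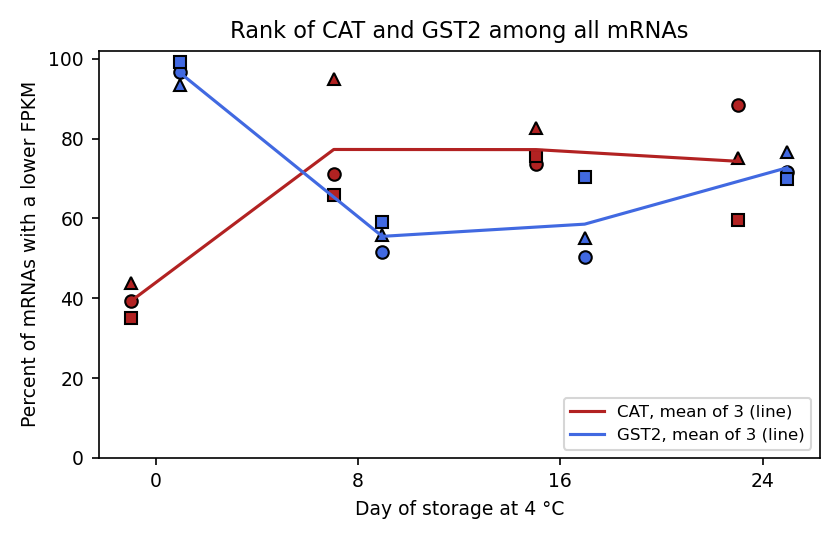
Share of all 13103 mRNAs with a lower FPKM than CAT (red) and GST2 (blue) in each library, by day of storage, with circles, squares and triangles for replicates 1, 2 and 3 and a line through the means. CAT went from 39.4% on day 0 to 77.3% on day 8 and GST2 from 96.5% to 55.5%, and on day 24 the means were 74.3% and 72.7%.

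The ratio of the levels gives the same exchange per library. GST2 mRNA per unit of CAT mRNA, both per length, was 39.8, 124 and 13.0 in replicates 1, 2 and 3 of day 0. It was 0.454, 0.755 and 0.107 on day 8 and 0.378, 0.824 and 0.321 on day 16. All 6 libraries of these days thus held more CAT than GST2. On day 24 the ratio was 0.395, 1.56 and 1.09, so that 1 library held more CAT and the other two more GST2. The mean log2 ratio was 5.32 ± 1.63 (SD, n = 3), -1.59 ± 1.46, -1.11 ± 0.73 and -0.19 ± 1.03 on days 0, 8, 16 and 24, and the ranges of the 3 stored days overlapped.

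Replicates of both genes differed more than those of most mRNAs. The pooled SD within days was 0.918 log2 units for CAT and 0.682 for GST2, against a median of 0.320 over the mRNAs tested, of which 96.4% had a smaller SD than CAT and 90.7% a smaller one than GST2. The days of widest spread were not the same for both. CAT had an SD of 1.44 on day 8 and 1.03 on day 24, each larger than in 98.4% of mRNAs on that day, of 0.38 on day 0 (larger than in 54.6%) and of 0.30 on day 16 (74.6%). GST2 had an SD of 1.19 on day 0 and 0.59 on day 16 (larger than in 95.2% and 95.5% of mRNAs) and of 0.21 on both day 8 and day 24 (32.9% and 52.9%).

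As shares of the mean, the SD of CAT was 29.6%, 106%, 21.9% and 70.7% on days 0, 8, 16 and 24, and that of GST2 77.4%, 14.6%, 44.5% and 15.6%. All lie well above the counting error. Of the total variance of log2 values, 68.3% lay between days for CAT and 89.2% for GST2, against a median of 67.0% over the mRNAs tested. The highest and lowest libraries of a day differed up to 6.36-fold for CAT (day 8) and 5.27-fold for GST2 (day 0).

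The third question is whether a library with more CAT than others of its day held less GST2. On day 0 the order of replicates was reversed in full, with replicate 2 lowest in CAT (6.45 FPKM) and highest in GST2 (797.8 FPKM) and replicate 3 highest in CAT (11.7 FPKM) and lowest in GST2 (151.5 FPKM). On other days this was not so. Replicate 3 of day 8, with 200.6 FPKM of CAT, had 21.5 FPKM of GST2, the middle value of its day, and replicate 1 of day 24, with 104.8 FPKM of CAT, had 41.5 FPKM of GST2, again the middle value. Replicate 2 of day 24 was lowest in both.

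Over all 12 libraries, after the mean of each day was removed, Pearson's r between the log2 values was -0.168 (two-sided exact permutation of libraries within days, p = 0.356 over 1296 arrangements) and Spearman's rho was -0.119 (exact permutation p = 0.693). The genes lay on the same side of their day means in 5 of 12 libraries. Without the libraries farthest from the median CAT deviation, replicate 3 of day 8 and replicate 1 of day 24, r was -0.456 (exact permutation p = 0.285). Leaving out 1 library at a time gave r between -0.301 and -0.0451. No relation within days was therefore detectable with 3 libraries a day, and the opposite courses of CAT and GST2 were seen between fresh and stored fruiting bodies. No pooled r over the days is given, because the fresh libraries lie apart from the stored ones.

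**Figure D4:**
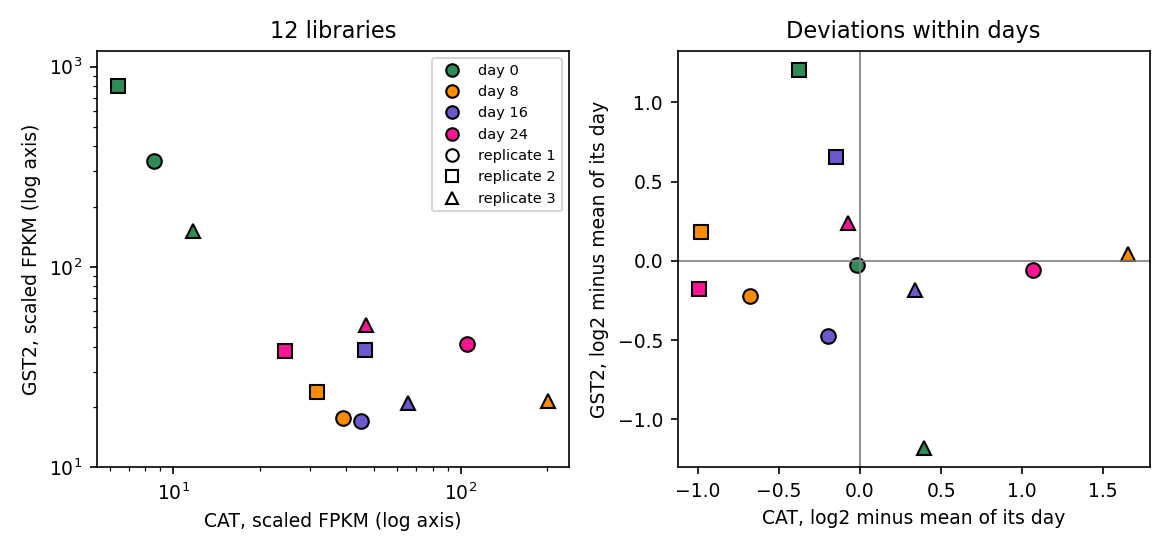
CAT and GST2 in the 12 libraries, as scaled FPKM on log axes (left) and as log2 deviations from the mean of each day (right), with 1 colour per day and 1 marker shape per replicate. The 3 fresh libraries (green) lie apart at the left, and the deviations show no detectable relation (r = -0.168).

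Beside CAT and GST2 the study named 5 mRNAs of carbon and energy metabolism in the same set of targets, which also holds ergosterol genes that are not described here. All 5 were called up-regulated on all 3 stored days by limma, as CAT was. Of the 10962 mRNAs tested, 1494, 1602 and 730 were called higher on days 8, 16 and 24. The number called higher on all 3 days was not counted. The study chose the 5 named mRNAs on these libraries, so their count is not independent evidence of a direction. ADH1 (EVM0007108), the alcohol dehydrogenase that makes ethanol in fermentation, had a log2 fold change of 3.61 on day 8 and 5.49 on day 24 (adjusted p = 0.00137 and 0.000560). PDC (EVM0009327), the pyruvate decarboxylase that supplies it with acetaldehyde, had 3.28 on day 8 and 1.91 on day 24 (0.000121 and 0.0102). FDH (EVM0012176), the formate dehydrogenase that oxidises formate to carbon dioxide, had 3.16 and 3.56 (0.00367 and 0.00564).

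GPDH (EVM0008918) was close to CAT in level on day 0 (6.99 ± 2.65 FPKM, SD, n = 3) and day 16 (54.9 ± 11.7). On days 8 and 24 its means were lower, at 48.7 ± 31.7 and 34.8 ± 4.19 FPKM, against 90.4 ± 95.5 and 58.7 ± 41.5 for CAT. GPDH had a log2 fold change of 2.51 on day 8 and 2.21 on day 24 (limma, adjusted p = 0.000286 and 0.00260). PK (EVM0009831), the pyruvate kinase of the last step of glycolysis, had 1.57 and 1.91 (0.0144 and 0.0133) at levels from 841 to 4776 FPKM. The high CAT library of day 8, replicate 3, was also the highest of its day for FDH (1151 FPKM), ADH1 (1641 FPKM) and GPDH (85.3 FPKM), but not for PDC or PK. That library was the highest of its day for 43.0% of all mRNAs tested. The high GST2 library of day 0, replicate 2, was the highest of its day for all 5 of these mRNAs and for 37.9% of all mRNAs tested. Whether the 2 libraries differ in the material or in its handling was not tested.

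The study lists 5 lncRNAs as trans partners of CAT and 10 as partners of GST2, chosen in these same libraries by differential expression and by a correlation of at least 0.85. Their courses are therefore given as a description. A trans lncRNA is one paired with an mRNA by joint expression and not by position in the genome. Of the 5 lncRNAs of CAT, 4 are also listed for FDH or GPDH, and of the 10 of GST2, 0 are.

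All 5 lncRNAs of CAT were called higher on day 8 and on day 16, against 16.9% and 16.8% of the 1002 lncRNAs tested. On day 16 the count was 3 without replicate 3 of day 0 and without replicate 1 of day 16. In these fits 147 and 140 of all lncRNAs were called higher, against 168 with all libraries. On day 24, 2 of 5 were called higher, against 5.59% (56 lncRNAs). Without replicate 1 of day 24 the count was 0, beside 22 of all lncRNAs, and without replicate 3 of day 8 it was 5, beside 86 of all. XLOC_009489 was the one most like CAT. It stood at 48.2, 34.7 and 35.8 FPKM on day 0, at 94.3, 96.4 and 275.1 on day 8, at 137.0, 159.0 and 173.7 on day 16, and at 246.4, 108.3 and 140.5 on day 24. Its high libraries of day 8 and day 24 were thus those of CAT, and by limma it had changed by 1.77, 1.97 and 1.96 log2 units with adjusted p of 0.00350, 0.00227 and 0.00937. XLOC_007565 had the highest levels of the list, from 830.7 FPKM in a fresh library to 26176 FPKM in replicate 3 of day 8. It was called on day 8 and day 16 but not on day 24, where the log2 fold change was 1.78 and the adjusted p 0.103.

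Of the 10 lncRNAs of GST2, 7 were called lower on day 8 and 8 on day 16, against 32.9% and 30.2% of lncRNAs. On day 24, 5 of 10 were called lower, against 4.69% (47 lncRNAs). Without replicate 1 of day 24 the count was 1, beside 22 of all lncRNAs, and without replicate 3 of day 8 it was 7, beside 69 of all. The number over all lncRNAs itself ranged from 20 without replicate 1 of day 0 to 147 without replicate 3 of day 24, where the list had 3 and 6. The median log2 fold change of the list was -2.55, -2.61 and -2.41 on days 8, 16 and 24, against -0.40, -0.33 and -0.08 over all lncRNAs tested, and that of the CAT list was 1.77, 1.97 and 1.78. XLOC_007508, the one most like GST2, stood at 48.1, 84.3 and 27.7 FPKM on day 0 and between 1.25 and 20.5 FPKM in the stored libraries. XLOC_005088 stood at 76.3, 202.2 and 15.8 FPKM on day 0 and between 0 and 14.7 FPKM later. XLOC_011901 stood at 37.7, 49.9 and 29.1 FPKM on day 0 and is listed at 0 in all 3 libraries of day 16.

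The libraries that were highest or lowest of their day for an mRNA were so for its lncRNAs on some days and not on others. Replicate 3 of day 8, the highest in CAT, was the highest of its day for 5 of 5 lncRNAs of CAT (38.4% of all lncRNAs tested), and so was replicate 1 of day 24 (43.5%). Replicate 3 of day 0, the highest in CAT of its day, was so for 0 of 5 (35.0% of all), and replicate 2 of day 0, the lowest in CAT, was the lowest for 2 of 5 (36.9% of all). For GST2 the match was closest on day 0. Replicate 2 of day 0 was the highest of its day for 10 of 10 lncRNAs of GST2 (29.4% of all), and replicate 3 of day 0 was the lowest for 8 of 10 (26.9% of all). On day 24 the highest library of GST2, replicate 3, was the highest for 4 of 10 (24.0% of all) and the lowest, replicate 2, was the lowest for 2 of 10 (29.7% of all). Because the lists were chosen by correlation with the mRNA over these 12 libraries, matches of this kind are not independent of the choice.

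The scale of the correlation also mattered for which lncRNAs reached its threshold. With FPKM values r over the 12 libraries was at least 0.85 for 5 of 5 lncRNAs of CAT (0.889 to 0.948) and 10 of 10 of GST2 (0.893 to 0.992). With log2 values it was at least 0.85 for 4 of 5 (0.810 to 0.963) and 3 of 10 (0.596 to 0.944). The 12 points share their days and lie in a fresh and a stored group, so these r values are descriptions with no p.

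**Figure D5:**
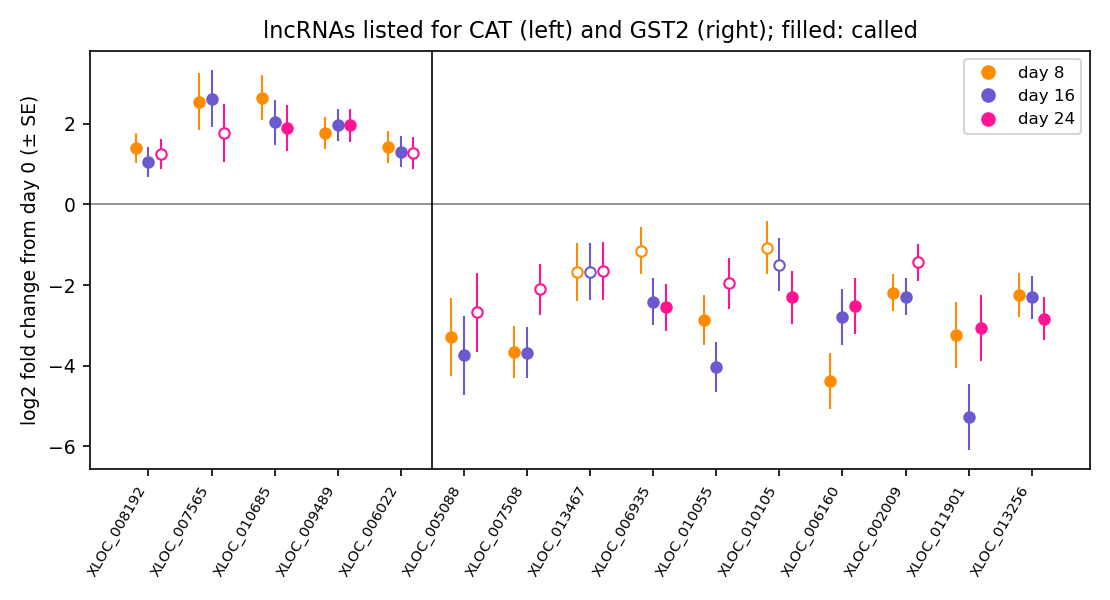
The log2 fold change from day 0 (limma on log2(scaled FPKM + 1), ± SE) of the 5 lncRNAs listed for CAT and the 10 listed for GST2 on days 8, 16 and 24, where filled points were called. All 5 lie above 0 and all 10 below 0, and fewer were called on day 24 (2 and 5) than on day 8 (5 and 7). The lowest point, XLOC_011901 on day 16, is listed at 0 FPKM in all 3 libraries, so its size depends on the added 1.

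Among 8052 mRNAs with a mean of at least 10 FPKM, 201 had an r of at least 0.85 with CAT over the 12 libraries on the log2 scale and 271 with GST2. The same limits as above apply to these r values. EVM0012115 (r = 0.965), EVM0003115 (0.961) and EVM0000160 (0.960) were most like CAT. EVM0003115 went from 41.7 ± 4.21 FPKM (SD, n = 3) on day 0 to 148.5 ± 126 on day 8, where replicate 3 stood at 293.7 FPKM against 69.3 and 82.5 in the other two, the pattern of CAT. EVM0005647 was the least like it (r = -0.968), with 48.1 ± 1.84 FPKM on day 0 and 19.5 ± 6.94 on day 8, and its lowest value of all, 11.5 FPKM, lay in that same replicate 3.

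EVM0001633 (r = 0.976), EVM0011644 (0.975) and EVM0005624 (0.971) were most like GST2. EVM0001633 stood at 126.7, 207.7 and 59.3 FPKM on day 0, the order of GST2, at 18.6 ± 2.41 on day 8 and at 35.4 ± 5.08 (SD, n = 3) on day 24. EVM0008055 was the least like it (r = -0.957), with 8.17 ± 2.22 FPKM on day 0 and 24.4 to 37.9 FPKM on day 16. No product is matched to these mRNAs in the sources used here.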

How the data were processed

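The authors removed rRNA, made directional libraries, and processed the reads with cutadapt 2.7 (trimming), FastQC 0.11.8 (quality), HISAT2 2.1.0 (alignment) and StringTie 1.3.3b (quantification). The deposited values are FPKM, scaled by the authors to transcript length and to the mapped reads of the library, for 13103 mRNAs and 1003 lncRNAs in 12 libraries (3 per day). The sources used here do not state whether counting used the strand, so reads from an antisense gene cannot be told apart. No count table was used here, so limma took the place of the count test that the methods describe.

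Each library was scaled by a median-of-ratios factor from mRNAs above 0 in all libraries. Genes of at least 1 FPKM in at least 3 libraries were kept (10962 mRNAs, 1002 lncRNAs), and log2(scaled FPKM + 1) was fitted with limma 3.58.1 in R 4.3.3, with day as a factor of 4 groups and a mean-variance trend. P-values were adjusted by Benjamini-Hochberg over each class. Whole reads were recovered as the largest step of which a gene's depth-corrected FPKM values are multiples. The relation within days used all arrangements of libraries within days. Ranks used all mRNAs, and tied values shared the smallest rank number of the tie.

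The members and lists were chosen with earlier results of these data known. Named genes are CAT, GST2, the lncRNAs and 5 other mRNAs the study lists, and the 3 mRNAs most like, the 1 mRNA least like and the 1 lncRNA most like each member by Pearson's r on the log2 scale. As alternatives, the pseudocount was set to 0.1, the filter was dropped or raised to a mean of 5 FPKM, and the scaling was dropped or replaced by quantile normalization or an equal sum over mRNAs. Others were factors from the lncRNAs, 2 groups only, the replicate number as a block, each library left out, and, added after seeing the data, limma-voom on recovered reads. The procedure was tested on simulated data. Sequences and genome positions were not used here. Matplotlib 3.10.9 and Python 3.11.15 were used for figures.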

Additional observations from a re-analysis of the deposited data

How the results depend on the processing

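The fall of GST2 against day 0 was called on all 3 days under all alternatives run, and so was the rise of CAT on days 8 and 16. The rise of CAT on day 24 was called under the 9 alternatives that keep all libraries (adjusted p 0.0159 to 0.0353) and under 9 of the 12 that leave 1 out, with log2 fold changes from 1.86 to 2.89. Leaving 1 library out moved the CAT differences between stored days across 0, from -0.77 to 0.54 for day 16 against day 8, from -0.88 to 0.48 for day 24 against day 8 and from -0.59 to 0.44 for day 24 against day 16, none of them called, and that of GST2 for day 16 against day 8 from -0.14 to 0.43. GST2 on day 24 against day 8 ranged from 0.90 to 1.11 and was called without either of 2 fresh libraries. At 1.02, it was also called in the fit of only the 2 groups compared, which leaves out both day 0 and day 16. Deviations of same-numbered libraries correlated at -0.371 to 0.351 (median -0.0152), and those of other numbers at -0.282 to 0.341 (median -0.00154). No pairing by replicate number was seen, but 3 libraries a day cannot exclude it. With the replicate block, log2 fold changes were equal, the adjusted p of CAT against day 0 was 0.00306, 0.00516 and 0.0159 and that of GST2 0.000135, 0.000180 and 0.00303, and no call of CAT or GST2 changed. Counts of listed lncRNAs on day 24 were the least stable. Under the alternatives that keep all libraries, they ran from 1 to 5 for CAT and from 2 to 8 for GST2. They were lowest with a pseudocount of 0.1, under which 48 of all lncRNAs were called higher and 32 lower on day 24. The CAT count was as low in the fit of only the 2 groups compared, beside 51 of all lncRNAs called higher. Both counts were highest with quantile normalization, under which 130 of all lncRNAs were called higher and 97 lower. The main fit called 56 and 47. The cause of these shifts was not tested. The 95% intervals of the differences between stored days limit what 3 libraries a day can show: for day 24 against day 16 they ran from -1.47 to 1.35 for CAT and from -0.24 to 1.88 for GST2.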
